A study of Rattus norvegicus with 72 samples.

Results

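The matrix proteases and their inhibitors of rat lung were taken as all rows of the count table whose symbol begins with Mmp, Timp or Adamts followed by a digit or the letter l, without Mmp12. This rule found 50 of 30042 rows: 23 matrix metalloproteinases (Mmp), 18 Adamts proteases, 5 Adamts-like genes and 4 tissue inhibitors of metalloproteinases (Timp). RNA of a piece of lung was sequenced from 72 adult male Sprague-Dawley rats, 1 library per animal. By whole-body inhalation, 6 hours per day on 4 days, they breathed filtered air or diesel exhaust particles (DEP, 200 or 1000 ug/m3 of air), and were killed 1, 7 or 27 days later. There were 12 groups of 6 rats: at each day a 1000 ug/m3 group, a 200 ug/m3 group, and an air group for each of these, called air H (paired with 1000 ug/m3) and air L (paired with 200 ug/m3) after a letter in the sample titles. The meaning of the letters is not given in the labels. The study is on lung effects of breathing diesel particles, and the comparisons here ask which matrix proteases the lung expressed and how they differed after exposure, between the H and L sets and between days.

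Matrix metalloproteinases are zinc enzymes, secreted or held at the cell membrane, that cut collagens, gelatin, elastin and other matrix proteins. Adamts enzymes are secreted relatives that trim procollagens and cleave proteoglycans such as versican and aggrecan, and Adamts-like proteins share their matrix-binding domains without the protease. Timps bind metalloproteinases and block their active site, so the balance of proteases and Timps is a classical control point of matrix turnover in lung injury, emphysema and fibrosis.

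The results below turn mostly on 3 of the 4 Timps, and the 250 bases before their annotated starts are shown. At day 7, Timp1 and Timp2 were lower in the H than in the L sets, and Timp3 was higher. The sequences are from RefSeq on the build GRCr8, written 5′ to 3′ on the strand of the gene, and capitals mark matches on either strand to a GC box (GGGCGG) or a CCAAT box (CCAAT). The count files used Rnor_6.0, so these coordinates do not belong to the counts. Timp1 lies at chrX:3771123-3771372, Timp2 at chr10:104089215-104089464 and Timp3 at chr7:19459559-19459808, all on the minus strand.
Timp1: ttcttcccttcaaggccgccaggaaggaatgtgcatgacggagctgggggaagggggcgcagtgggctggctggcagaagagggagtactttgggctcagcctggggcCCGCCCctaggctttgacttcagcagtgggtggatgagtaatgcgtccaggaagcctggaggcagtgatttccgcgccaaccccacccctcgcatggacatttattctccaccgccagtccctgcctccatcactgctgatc
Timp2: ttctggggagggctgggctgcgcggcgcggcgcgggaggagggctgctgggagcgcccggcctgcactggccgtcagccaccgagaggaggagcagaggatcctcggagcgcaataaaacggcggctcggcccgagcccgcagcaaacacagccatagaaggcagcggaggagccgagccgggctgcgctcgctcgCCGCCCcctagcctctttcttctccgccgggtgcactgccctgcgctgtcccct
Timp3: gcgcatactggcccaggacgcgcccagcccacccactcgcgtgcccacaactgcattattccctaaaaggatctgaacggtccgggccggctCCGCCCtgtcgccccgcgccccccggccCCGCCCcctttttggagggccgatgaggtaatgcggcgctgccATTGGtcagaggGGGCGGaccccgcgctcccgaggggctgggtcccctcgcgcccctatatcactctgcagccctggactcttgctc

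Timp1 and Timp2 each had 1 GC box in this window, and Timp3 had 3 GC boxes and 1 CCAAT box. No window of these 3 held the exact letters of the AP-1 motif TGANTCA or the TATA box TATAAA on either strand. Near matches, such as TGAGTAA in the Timp1 window, were not searched, so this does not show that an AP-1 site is absent. Among 33469 promoter windows of the same length, 30.5% held a GC box, 34% a CCAAT box, 6.34% the AP-1 motif and 12.9% the TATA box. The GC content was 61.2% for Timp1, 72% for Timp2 and 69.6% for Timp3. Of the 50 members, 38 had an entry in the promoter table. These matches describe letters only.

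Total counts per library were 1042336 to 2397971 at day 1, 3471134 to 6279763 at day 7 and 3761631 to 6520180 at day 27, leaving aside 3 shallow libraries of 1000 ug/m3 rats: animal 037 at day 7 (105453 counts) and animals 024 (439393) and 045 (149004) at day 27. Day 1 was sequenced less deeply than day 7, so changes between days are also given in counts thinned to 1042336 per library, without the 3 shallow ones. The depths of days 7 and 27 overlapped, so between these days thinning mainly discards reads and power. A call lost there is therefore not read as an effect of depth. Thinning was a single random draw. The labelled tissue was matched by its lung epithelial markers, whose summed level had group medians of 10600 to 13900 CPM. CPM are counts scaled to a library of 1e6, with TMM library factors. Of 6 macrophage markers, 5 were rows of the count table, and their summed level had group medians of 308 to 445 CPM. Marco, among these 5, had 0 counts in most groups and does not count toward the match. The labels do not say whether H and L animals were handled, exposed or sequenced apart. The H animals carry numbers 1 to 24 (4 per group) and 25 to 48 (2 per group), whose meaning is not given either. In bulk tissue, fewer cells of a type and less RNA per cell cannot be told apart.

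Rat lung expressed 35 of the 50 members, defined as a median of at least 1 CPM over the 72 libraries. Another 11 were low and 4 (Mmp1, Mmp1b, Mmp10 and Mmp20) had 0 counts in all libraries. A count of 0 allows a level of up to 0.46 CPM in the deepest library and 2.88 CPM in the shallowest library of day 1, by a limit of 3 counts that covers counting error only. Expression was uneven across roles: 5 of 5 Adamts-like genes, 3 of 3 procollagen N-proteinases and 6 of 7 proteoglycan-cleaving Adamts were expressed, but 1 of 4 collagenases and 1 of 3 stromelysins. CPM are not scaled by gene length, so levels are compared within a gene and not between genes.

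**Figure D1:**
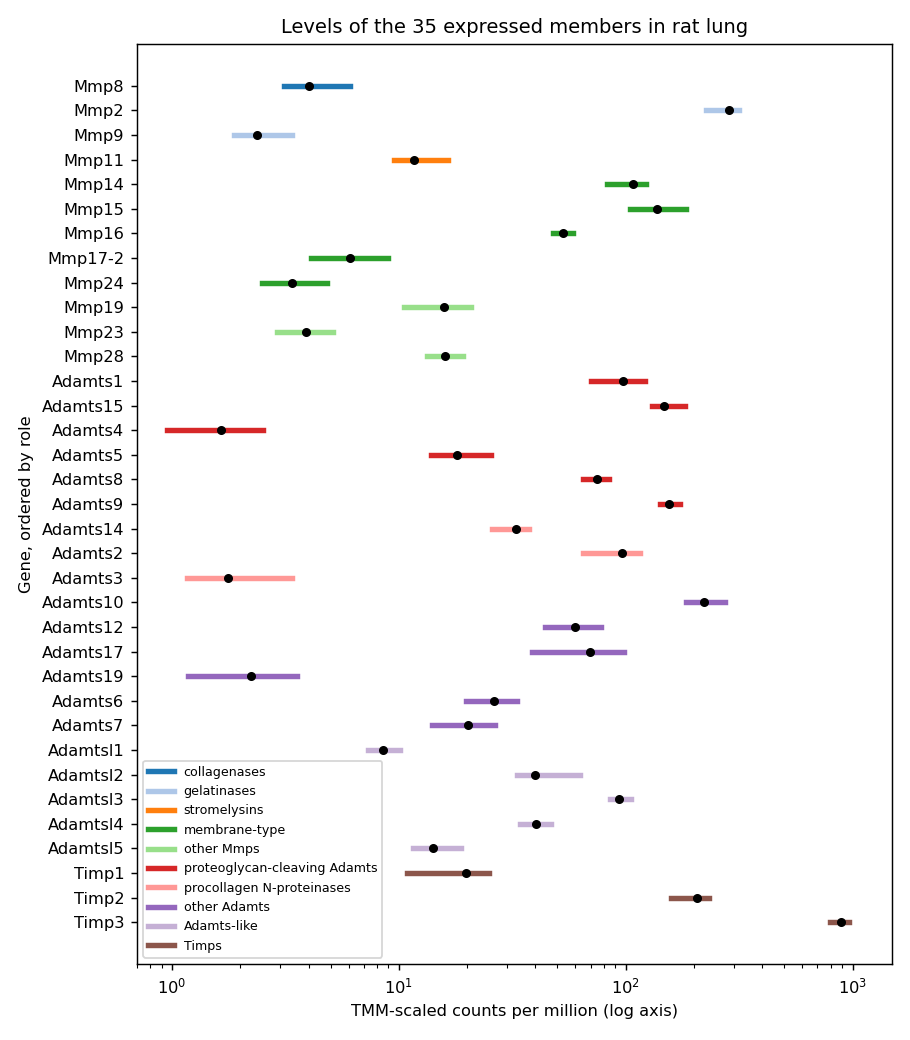
Median level of each of the 35 expressed members over 72 libraries (points) and the range of the 12 group means (bars), in TMM-scaled CPM on a log axis, coloured by role. Bars are short for Timp3 (797 to 967 CPM) and Mmp16 (48 to 58.6 CPM) and longer for Timp1 (10.9 to 24.9 CPM) and Adamts17 (38.5 to 98.6 CPM).

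Among the inhibitors, Timp3, which is bound to the matrix and also blocks Adamts enzymes, had a median of 892 CPM and group means of 797 to 967 CPM. Timp2, which blocks Mmps and also takes part in the activation of Mmp2 by Mmp14, had a median of 206 CPM and group means of 159 to 232 CPM. Timp1, an inducible secreted inhibitor, had a median of 19.8 CPM, and its highest group mean was 2.28 times its lowest. Timp4 was low, with a median of 0.871 CPM and group means of 0.609 to 1.5 CPM, and was not tested. Animals of a group varied little for Timp2, with a median coefficient of variation within groups of 6.55%, and more for Timp1 (19.5%).

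Of the gelatinases, which digest denatured collagen, Mmp2 had a median of 285 CPM and Mmp9 of 2.36 CPM. Mmp14 and Mmp15, transmembrane enzymes of the cell surface, had medians of 108 and 137 CPM, and Mmp16, another enzyme of that kind, 53 CPM. Mmp8, the neutrophil collagenase, was the only expressed member of the 4 collagenases, at 4.03 CPM, while Mmp13 had 14 counts in total. Mmp11, the expressed stromelysin, had a median of 11.7 CPM, and Mmp3 had 1 count in total. Mmp7, the matrilysin of epithelia, had 6 counts in total. Mmp19 and Mmp28, secreted enzymes outside these classes, stood at 15.8 and 16 CPM.

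The proteoglycan-cleaving enzymes Adamts9, Adamts15, Adamts1 and Adamts8 had medians of 155, 148, 97.1 and 74.8 CPM, whereas the aggrecanases Adamts5 and Adamts4 had 18.1 and 1.64 CPM. Adamts2, Adamts14 and Adamts3, which remove the N-terminal propeptide of procollagens, had 96.6, 32.9 and 1.77 CPM. Adamts10 and Adamts17, both linked to fibrillin microfibrils, had 221 and 69.3 CPM. Adamtsl3, Adamtsl4 and Adamtsl2, the latter pair known to bind fibrillin, had 93, 40.3 and 39.9 CPM.

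Some rows carry uncertain reads. By name, 49 of 50 members were matched to a GRCr8 gene table, and 21 of them overlap another gene there. Timp1, Timp3 and Timp4 lie within synapsin genes, but Syn1, Syn3 and Syn2 had 109, 195 and 22 counts over all libraries, against 4496 for Timp1 and 218909 for Timp3. Mmp17 (10 counts) and Mmp17-2 (1448 counts) are listed as separate rows, and the latter had no match, so reads may be split between them.

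After exposure, no member passed the test at either concentration on any day. Each exposed group was compared with its own air group by edgeR's quasi-likelihood test with Benjamini-Hochberg adjustment over all genes tested, at a threshold of 0.05. At 1000 ug/m3 the counts were 0 of 28 members at day 1, 0 of 34 at day 7 and 0 of 33 at day 27, where 0%, 0% and 0% of all genes passed. At 200 ug/m3 they were likewise 0 of 28, 0 of 34 and 0 of 33, where 0%, 0.00698% and 0% of all genes passed. The average exposure effect over the 6 comparisons called 0 of 35 members (0.0134% of all genes). The difference between the concentrations' effects called 0 of 28, 0 of 34 and 0 of 33 members at days 1, 7 and 27 (0.00813%, 0% and 0% of all genes). At an unadjusted p under 0.05, 1, 2 and 1 members stood out at 1000 ug/m3 on days 1, 7 and 27 and 0, 0 and 7 at 200 ug/m3, and 1 in the average. The corresponding shares of all genes were 3.41%, 4.39% and 7%, then 6.02%, 5.71% and 9.69%, and 5.06%. DESeq2 and limma-voom also called 0 members in each of these comparisons.

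**Figure D2:**
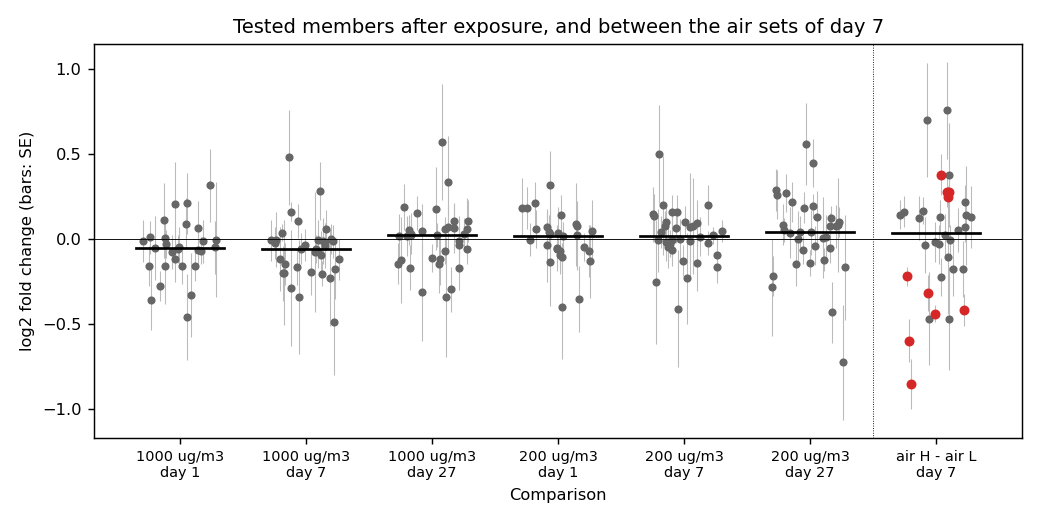
Log2 fold change (points, bars show the standard error) of each tested member in the 6 exposure comparisons and, right of the dotted line, between the air sets of day 7. Black lines are medians and red points passed the test. No point is red after exposure, whereas 10 of 34 are red between the air sets.

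The intervals were narrow for most members. In the average effect, the 95% intervals of 35 of 35 tested members lay within a change of 1.5-fold. In single comparisons, 28 of 28 intervals at day 1, 31 of 34 at day 7 and 31 of 33 at day 27 lay within 2-fold at 1000 ug/m3, and 27 of 28, 31 of 34 and 31 of 33 at 200 ug/m3. Medians of the members' log2 fold changes ran from -0.06 to 0.04 over the 6 comparisons, beside medians of all genes within 0.01 of 0. At 1000 ug/m3 on day 7, in the group with the shallow animal 037, 28 of 34 members had a negative value, with a median of -0.06. The share of all genes with a negative value was not counted. Members measured in the same libraries are not independent, so the signs are not read as a joint decrease.

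Timp1 averaged 13.1 ± 2.71 CPM (SD, n = 6) in air H and 10.9 ± 2.75 CPM after 1000 ug/m3 at day 7, a log2 fold change of -0.20 (95% interval -0.54 to 0.13, edgeR adjusted p = 1). Timp2 and Timp3 differed by at most 0.12 on the log2 scale from their air groups in all 6 comparisons, in either direction. Over all exposures the log2 change was -0.01 for each of Timp1, Timp2 and Timp3, with standard errors of 0.0695, 0.0274 and 0.0292. For the gelatinases the average log2 change was 0.02 (SE 0.0293) for Mmp2 and -0.18 (SE 0.167) for Mmp9, a gene of low level. Mmp8 averaged -0.22 (SE 0.165).

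The members with the smallest p in each comparison are given as values. Adamts10 at day 1 ranged from 153 to 207 CPM (median 190) after 1000 ug/m3 and from 217 to 266 CPM (median 224) in air H. These groups did not overlap, which held for 1 of 28 members and 0.195% of all genes. Its log2 fold change was -0.28 (95% interval -0.46 to -0.10, edgeR adjusted p = 1).

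Adamts10 at day 7 ranged from 167 to 267 CPM after 1000 ug/m3 and from 264 to 293 CPM in air H. The lowest value was that of the shallow animal 037, and the groups overlapped. The log2 fold change was -0.21 (SE 0.0718, edgeR adjusted p = 1), and at day 27 it was 0.02. Adamts1, an early-response protease that cleaves versican, averaged 90.6 CPM after 1000 ug/m3 and 120 CPM in air H at day 27 (log2 -0.30, SE 0.132, edgeR adjusted p = 0.694). Its lowest exposed values, 69.1 and 75.8 CPM, were those of the shallow animals 024 and 045. The other exposed animals had 86.6 to 112 CPM, against 98.2 to 148 CPM in air H.

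At 200 ug/m3, Adamts5 averaged 19.3 ± 4.65 CPM against 14.1 ± 1.8 CPM in air L at day 27 (SD, n = 6 each). Its values of 14.4 to 27.8 CPM overlapped the air values of 11.7 to 16.5 CPM, and the log2 fold change was 0.45 (SE 0.143, edgeR adjusted p = 0.368). At day 1 the same gene stood at 18.8 against 24.5 CPM (log2 -0.36, SE 0.195, edgeR adjusted p = 0.847), where animal 060 had 6.52 CPM. Mmp15 at day 7 stood at 139 against 155 CPM (log2 -0.16, SE 0.0944, edgeR adjusted p = 0.915). In the difference between concentrations, Adamts7 at day 1 (log2 -0.54), Mmp2 at day 7 (0.22) and Adamts5 at day 27 (-0.57) had edgeR adjusted p = 0.998, 0.891 and 0.247.

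Between the H and L sets, members did differ, and most at day 7. Among air rats of day 7, 10 of 34 tested members passed (29.4%, where 25.5% of all genes passed, 10.3% higher and 15.2% lower): Timp1, Timp2, Mmp2, Mmp15, Mmp19 and Adamtsl4 were lower in air H, and Timp3, Adamts1, Adamts10 and Adamtsl3 were higher. Among exposed rats of day 7, which share no library with the air rats, 6 of 34 passed (17.6%, where 27.9% of all genes passed, 11.7% higher and 16.2% lower): Timp1, Timp2, Mmp19, Adamtsl4 and Adamts17 were lower at 1000 than at 200 ug/m3, and Timp3 was higher. The members' shares were thus near or below those of all genes. In the exposed rats the concentration and the set cannot be told apart. Timp1, Timp2, Timp3, Mmp19 and Adamtsl4 passed in the same direction in both. The share of all genes that did so was not counted, so this is not read as a trait of the members.

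**Figure D3:**
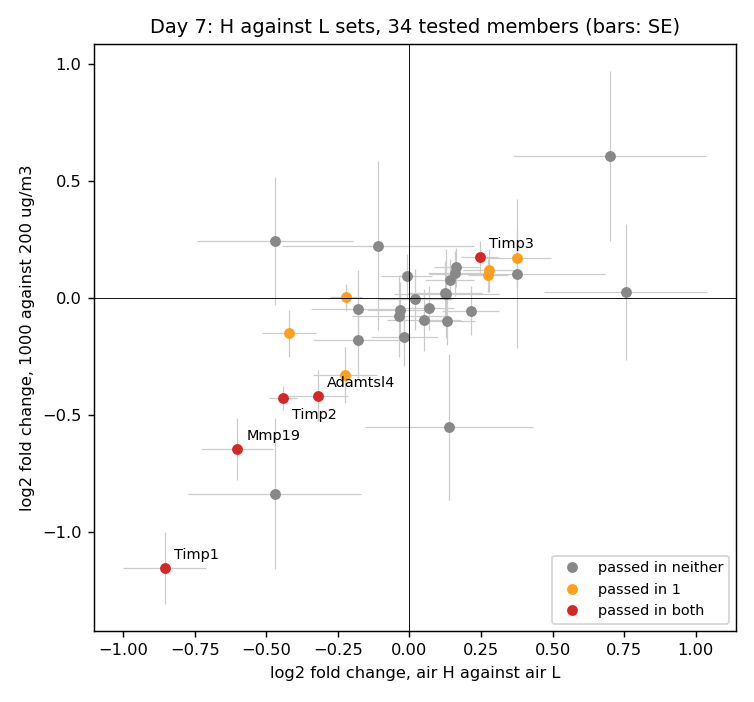
Log2 fold change of the 34 members tested at day 7 between air H and air L (x axis) and between 1000 and 200 ug/m3 (y axis), with standard errors as bars. The 5 members that passed in both comparisons are labelled, with Timp1 at -0.86 and -1.15 the farthest from 0.

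Timp1 at day 7 ranged from 9.24 to 17.2 CPM (median 13.2) in air H and from 19.8 to 27.7 CPM (median 23.8) in air L. After 1000 ug/m3 it ranged from 8.96 to 16.2 CPM in 5 animals, with 8.78 CPM from 1 count in the shallow animal 037, and after 200 ug/m3 from 18.2 to 30.5 CPM (median 26). The 11 deeper H animals were below all 12 of the L sets, while animal 037, with only 1 count, cannot be placed. The log2 difference was -0.86 (SE 0.145, edgeR adjusted p = 3.54e-05) between air groups and -1.15 (SE 0.155, edgeR adjusted p = 9.6e-07) between exposed groups. Without animal 037 the latter was -1.14 (edgeR adjusted p = 2.51e-06).

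Timp2 at day 7 ranged from 155 to 174 CPM (median 159) in air H and from 201 to 226 CPM (median 216) in air L. It ranged from 123 CPM, from 14 counts in animal 037, to 171 CPM (median 165) after 1000 ug/m3 and from 201 to 237 CPM (median 218) after 200 ug/m3. No H animal of a deeper library reached the lowest L animal, and the value of animal 037 rests on 14 counts only. The log2 difference was -0.44 (SE 0.0498, edgeR adjusted p = 4.05e-08) and -0.43 (SE 0.0517, edgeR adjusted p = 1.9e-07).

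Mmp19 at day 7 ranged from 12.4 to 14.8 CPM (median 13) in air H and from 17.3 to 22.9 CPM (median 20.2) in air L. After 1000 ug/m3 it had 0 counts in the shallow animal 037, whose limit is 28.4 CPM, and 10.6 to 14.5 CPM in the other 5, against 14.9 to 23.4 CPM after 200 ug/m3. The 11 deeper H animals were again below all L animals, and animal 037 cannot be placed. The log2 difference was -0.60 (SE 0.126, edgeR adjusted p = 0.00051) and -0.65 (SE 0.133, edgeR adjusted p = 0.000392). Groups that do not overlap were found for 5 of 34 members between air sets (14.4% of all genes) and, with animal 037 taken at its observed values, 3 of 34 between exposed sets (10.3% of all genes). Without animal 037 the exposed Mmp19 difference was -0.62 (edgeR adjusted p = 0.000337), and that of Adamts17 no longer passed (-0.31, edgeR adjusted p = 0.0535).

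**Figure D4:**
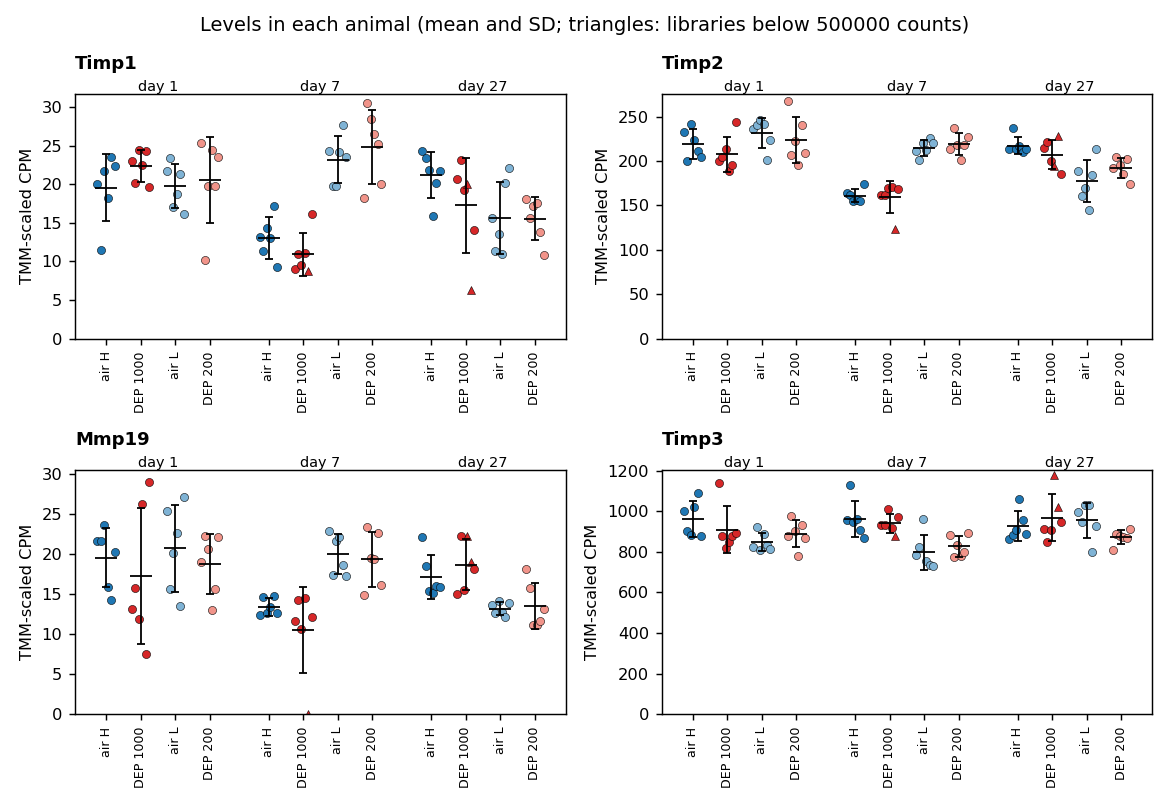
TMM-scaled CPM of Timp1, Timp2, Mmp19 and Timp3 in each of the 72 animals by group and day (points), with group mean and SD, and triangles for the 3 libraries below 500000 counts. At day 7 the 11 H animals of deeper libraries lie below all L animals for Timp1, Timp2 and Mmp19. The Timp3 groups overlap in air, and after exposure only by the shallow animal 037.

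Timp3 at day 7 averaged 961 ± 89 CPM in air H and 797 ± 86.8 CPM in air L (SD, n = 6 each), and 940 ± 47.6 CPM after 1000 and 827 ± 52.1 CPM after 200 ug/m3. Its air groups overlapped, and its exposed groups overlapped only by the shallow animal 037 (878 CPM from 100 counts). The other animals had 915 to 1010 CPM after 1000 ug/m3, against 774 to 893 CPM after 200 ug/m3. The log2 difference of Timp3 was 0.25 (SE 0.0651, edgeR adjusted p = 0.00507) in air and 0.18 (SE 0.0665, edgeR adjusted p = 0.046) after exposure. The latter call was lost in 4 of 11 alternatives. Adamtsl4 averaged 34.1 against 41.8 CPM in air and 36.8 against 46.7 CPM after exposure, with log2 differences of -0.32 and -0.42 (edgeR adjusted p = 0.0239 and 0.00414). The direct neighbours in the Timp system stood as follows: Mmp2 was lower in air H (274 against 314 CPM, log2 -0.22, edgeR adjusted p = 0.00357) but had 298 and 302 CPM after exposure. Mmp14 had 123 and 109 CPM in air, with an edgeR adjusted p of 0.229.

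Timp1 and Timp2 were lower in both number series of H animals at day 7, compared with the L animals after the data were seen. In air, Timp1 stood at -0.86 in series 1 to 24 and -0.84 in series 25 to 48, and Timp2 at -0.46 and -0.40, all passing. After exposure, Timp2 stood at -0.42 and -0.44, both passing, and Timp1 at -1.31 and -0.66, where the second did not pass (edgeR adjusted p = 0.173). Timp3 after exposure stood at 0.17 and 0.19 and passed in neither (edgeR adjusted p = 0.0849 and 0.338). With 2 animals per group, series 25 to 48 called 3 members in air and 1 after exposure. After exposure these 2 were animal 038 and the shallow animal 037, which had 1 Timp1 count and 14 Timp2 counts. Both series were set against the same L animals, so the comparisons are not independent.

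The summed level of endothelial markers (4 of 4 found) differed between these sets: at day 7 it was 1380 to 1700 CPM in the H groups and 1790 to 2250 CPM in the L groups, without overlap. Singly, 1 of 4 endothelial markers was higher and 2 lower in the H set, in air and after exposure alike. Of 6 lung epithelial markers, 0 were higher and 3 lower in air H, and 1 was higher and 1 lower after 1000 ug/m3. The fibroblast sum (6 of 6 found) was 4120 to 5810 CPM in the H and 4040 to 5180 CPM in the L groups. The part of these cell types in the Timp and Mmp19 differences was not tested.

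At day 27 the order of the sets was turned for several members. Between air sets, 7 of 33 members passed, all higher in air H (21.2%, where 14% of all genes passed, 8.92% higher and 5.11% lower): Timp2, Mmp15, Mmp19, Adamts10, Adamts17, Adamtsl4 and Adamtsl5. Between exposed sets 0 of 33 passed (0% of all genes, with 10 of 33 members at an unadjusted p under 0.05). Timp2, Mmp19, Mmp15 and Adamtsl4, lower in air H at day 7, were thus higher at day 27.

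Timp2 at day 27 ranged from 210 to 237 CPM (median 214) in air H and from 145 to 213 CPM (median 177) in air L, overlapping slightly (log2 0.29, SE 0.0670, edgeR adjusted p = 0.00401). Mmp15 ranged from 129 to 150 CPM in air H and from 93.7 to 118 CPM in air L, without overlap (log2 0.41, SE 0.0773, edgeR adjusted p = 0.000895). It shared this with Mmp19, at 15.1 to 22.1 against 12.2 to 14.1 CPM, so 2 of 33 members and 8.1% of all genes did not overlap. For Mmp19 the call was near the threshold (log2 0.37, SE 0.128, edgeR adjusted p = 0.0469), and 9 of 11 alternatives lost it. After exposure the corresponding log2 values were 0.09 for Timp2, 0.22 for Mmp15 and 0.41 for Mmp19 (edgeR adjusted p = 0.816, 0.513 and 0.465). Without the 3 shallow libraries 4 members passed between the air sets of day 27, in series 1 to 24 alone 4, and in series 25 to 48 alone 1.

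At day 1, 0 of 28 members passed between the air sets (1.68% of all genes, 0.829% higher and 0.853% lower) and 0 of 28 between the exposed sets (0% of all genes), while 5 and 7 members had an unadjusted p under 0.05. DESeq2 and limma-voom also called 0 in both. The nearest was Mmp15, at 147 CPM in air H and 184 CPM in air L (log2 -0.34, SE 0.112, edgeR adjusted p = 0.0841). Timp1 stood at 19.5 and 19.8 CPM and Timp2 at 219 and 232 CPM in air H and air L.

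From day 7 to day 27, Adamts2 and Mmp14 fell in all 4 sets, which share no library with each other. The share of all genes that fell in all 4 sets was not counted. Adamts2 trims procollagens, and Mmp14 is the membrane-type enzyme that activates Mmp2. The members that fell numbered 7 of 35 in air H, 13 in air L, 3 after 1000 ug/m3 and 10 after 200 ug/m3, and those that rose 5, 1, 4 and 0. Mmp2, Adamts12 and Adamts17 fell in 3 of the 4 sets, while Timp1, Timp2, Mmp15 and Mmp19 rose in some sets and fell in others. In all, 12, 14, 7 and 10 of 35 members passed, where 26.6%, 16.6%, 15.8% and 5.18% of all genes passed. Of all genes 10.7%, 11%, 5.71% and 4.09% fell and 15.8%, 5.58%, 10.1% and 1.1% rose. The median log2 change of the members was -0.15, -0.28, -0.06 and -0.23, beside a median of all genes of -0.01 in each set.

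**Figure D5:**
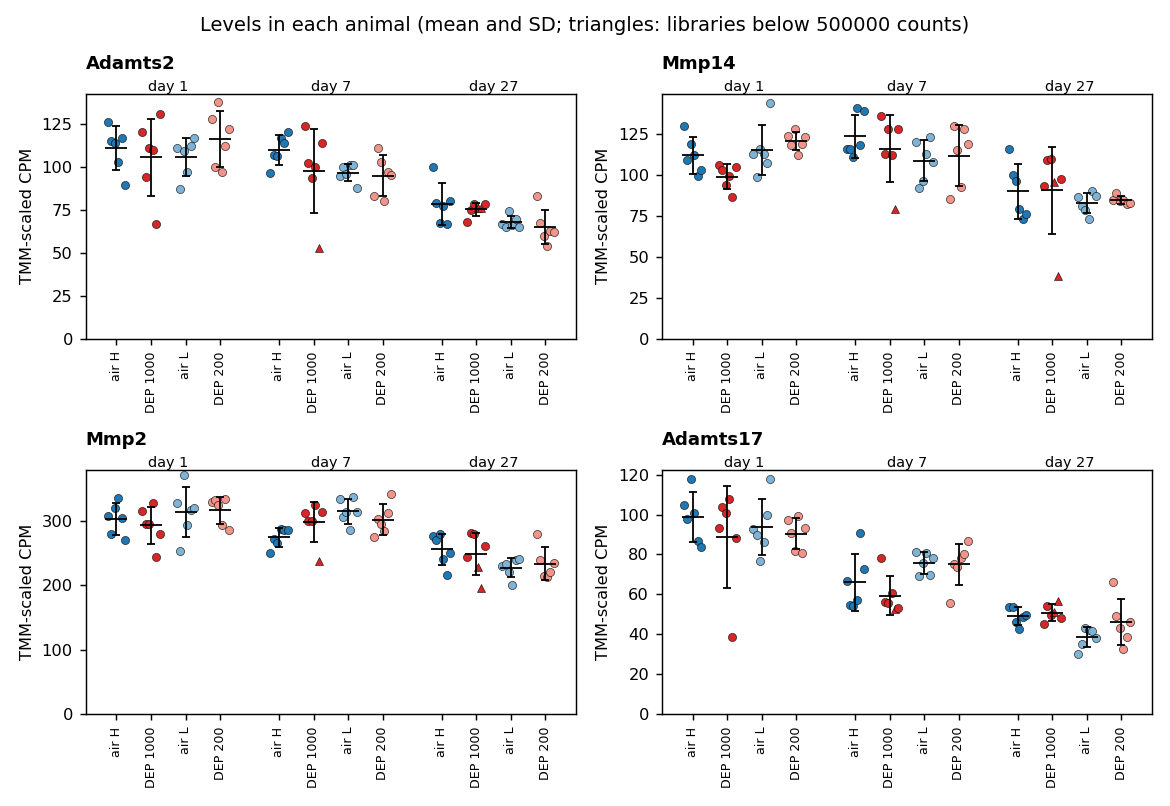
TMM-scaled CPM of Adamts2, Mmp14, Mmp2 and Adamts17 in each of the 72 animals by group and day (points), with group mean and SD, and triangles for the 3 libraries below 500000 counts. Adamts2 group means are 94.8 to 110 CPM at day 7 and 64.8 to 78.3 CPM at day 27.

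Adamts2 had day 7 means of 110, 96.7, 97.8 and 94.8 CPM in air H, air L, 1000 and 200 ug/m3, and day 27 means of 78.3, 67.8, 75.2 and 64.8 CPM. The log2 changes were -0.48, -0.54, -0.48 and -0.57, with edgeR adjusted p of at most 0.000394. In air L the animals ranged from 87.9 to 101 CPM at day 7 and from 65.2 to 74.1 CPM at day 27, without overlap, whereas in air H (96.2 to 120 against 66.5 to 99.8 CPM) they overlapped. Day 1 means were 105 to 116 CPM.

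Mmp14 had day 7 means of 123, 109, 116 and 112 CPM and day 27 means of 90.2, 82.8, 90.6 and 84.5 CPM in the same order. The log2 changes were -0.44, -0.42, -0.28 and -0.42. The change after 1000 ug/m3 was the least firm (edgeR adjusted p = 0.0411), with animal 045 at 37.9 CPM from 6 counts, and without the shallow libraries it was -0.26 (edgeR adjusted p = 0.0693). Mmp2 fell in 3 sets, by 0.50 in air L, 0.38 after 200 and 0.24 after 1000 ug/m3 on the log2 scale, and in air H it stood at 274 and 255 CPM at days 7 and 27. The change after 1000 ug/m3 did not pass without the shallow libraries (-0.21, edgeR adjusted p = 0.0571) or in thinned counts (-0.17, edgeR adjusted p = 0.231).

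Adamts17 had means of 98.6, 66 and 49.1 CPM at days 1, 7 and 27 in air H and of 93.9, 75.7 and 38.5 CPM in air L. Its fall from day 7 to day 27 passed in air H (log2 -0.41), air L (-1) and 200 ug/m3 (-0.71). Adamts12, which cleaves cartilage oligomeric matrix protein, fell by 0.40 in air H, 0.39 in air L and 0.40 after 200 ug/m3. Adamts10 fell by 0.35 in air H and 0.29 in air L. In thinned counts the changes of Adamts17 in air H (-0.47), Adamts10 in air L (-0.27) and Adamts12 in air L (-0.38) and after 200 ug/m3 (-0.34) did not pass, with edgeR adjusted p = 0.0719, 0.0535, 0.0743 and 0.22. The last was also lost in a fit of 36 libraries (edgeR adjusted p = 0.0547).

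The summed level of 6 fibroblast markers, all found, moved in the same direction, with group medians of 4490 to 5060 CPM at day 7 and 3150 to 3620 CPM at day 27. Singly, 1, 2, 1 and 0 of these 6 markers rose and 2, 2, 1 and 3 fell in air H, air L, 1000 and 200 ug/m3. Of 4 red blood cell markers, 0 rose and 2, 3, 2 and 2 fell in the same order, with median log2 changes of -0.347, -0.997, -0.818 and -0.59. The part of either cell type in the fall of Adamts2 and Mmp14 was not tested. Thinning reduced the calls to 5, 7, 3 and 3 of 28 tested members, and no longer called Adamts2 in the 1000 ug/m3 set (-0.37, edgeR adjusted p = 0.0941) or Mmp14 in air L and the 200 ug/m3 set (edgeR adjusted p = 0.054 and 0.0601).

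Timp1 and Timp2 took opposite courses in the H and L sets over these days. Timp1 rose by 0.72 on the log2 scale in air H and by 0.76 after 1000 ug/m3, and fell by 0.60 in air L and by 0.69 after 200 ug/m3. Timp2 rose by 0.44 and 0.32 and fell by 0.31 and 0.20 in the same order, and the last of these (edgeR adjusted p = 0.0421) was lost in 7 of 10 alternatives. In thinned counts the Timp1 changes of air H (0.57), air L (-0.32) and 200 ug/m3 (-0.43) no longer passed (edgeR adjusted p = 0.0915, 0.431 and 0.407). These values come from the day 7 libraries described above and are no second measurement of them.

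From day 1 to day 7, 10, 4, 10 and 5 of 35 members passed in air H, air L, 1000 and 200 ug/m3, where 36.1%, 14.5%, 37.5% and 12.4% of all genes passed. Of all genes 16.9%, 7.27%, 17.8% and 6.12% rose and 19.3%, 7.18%, 19.6% and 6.26% fell. Both H sets had 3 members higher and 7 lower, air L had 0 and 4, and the 200 ug/m3 set had 1 and 4. No member passed in all 4 sets. Adamts1 rose in air H (log2 0.59), after 1000 ug/m3 (0.75) and after 200 ug/m3 (0.48), from means of 79.1, 70.2 and 75.2 CPM to 122, 121 and 107 CPM. These rises also passed in thinned counts (0.63, 0.77 and 0.50). Adamts5 fell in air H (-0.52), air L (-0.51) and after 1000 ug/m3 (-0.50), but in thinned counts none of these passed (-0.34, -0.42 and -0.44, edgeR adjusted p = 0.18, 0.161 and 0.0831). In the H sets, air first and 1000 ug/m3 second, Timp1 fell by 0.62 and 1.03 and Timp2 by 0.48 and 0.37. In thinned counts both Timp2 changes (-0.39 and -0.41) and the Timp1 change after 1000 ug/m3 (-1.20) passed, and that of Timp1 in air H did not (-0.58, edgeR adjusted p = 0.0599). Of 4 endothelial markers, 1 rose and 2 fell in each H set over this interval, with median log2 changes of -0.38 and -0.36, and their part was not tested. In air L and after 200 ug/m3, 0 and 0 of 4 endothelial but 3 and 3 of 4 smooth muscle markers fell.

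The difference in change between the air sets was tested directly. From day 1 to day 7, the change in air H minus that in air L passed for 4 of 35 members (18.1% of all genes, 6.81% positive and 11.3% negative): -0.83 (SE 0.248) for Timp1, -0.36 (SE 0.0947) for Timp2, 0.35 (SE 0.110) for Adamts10 and 0.38 (SE 0.134) for Adamtsl3. From day 7 to day 27 it passed for 11 of 35 (29% of all genes, 17.5% positive and 11.4% negative), led by Timp2 (0.75, SE 0.0905, edgeR adjusted p = 2.13e-10), Timp1 (1.32, SE 0.213, edgeR adjusted p = 6.46e-07) and Mmp15 (0.84, SE 0.137, edgeR adjusted p = 8.12e-07). Mmp2, Mmp19, Adamts4, Adamts17, Adamtsl4 and Adamtsl5 were positive too, and Timp3 and Adamtsl3 negative. Both differences share the day 7 air libraries with each other and with the comparison of the sets at day 7. In thinned counts 1 and 5 members passed. For the first change Timp1 (-0.62), Timp2 (-0.22) and Adamtsl3 (0.40) did not pass (edgeR adjusted p = 0.213, 0.171 and 0.0888), and for the second Timp1 (0.88) and Timp2 (0.65) did.

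Genes that activate or restrain these proteases, or are their substrates, were followed as a list of 44 genes, of which 43 were in the table. After exposure 0 of 30, 32 and 33 passed at either concentration on days 1, 7 and 27, and 0 of 33 in the average. Between the air sets of day 7, 12 of 32 passed, 5 higher and 7 lower (37.5%, beside 25.5% of all genes), and between the exposed sets 10 of 32, 3 higher and 7 lower (31.2%, beside 27.9%). At day 27, 9 of 33 passed between the air sets, 8 higher and 1 lower (27.3%, beside 14%). At day 1 the only one of 30 was Adam17, a sheddase, at 0.29 (edgeR adjusted p = 0.0469).

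Htra1, a secreted serine protease of the matrix, had the smallest p of the list at day 7: 33.9 CPM in air H and 88.3 CPM in air L (log2 -1.41, SE 0.114, edgeR adjusted p = 1.69e-10), and 29 and 90 CPM after 1000 and 200 ug/m3 (-1.48, SE 0.120, edgeR adjusted p = 3.02e-10). Furin, which activates the proenzymes of membrane-type Mmps and many Adamts, stood at -0.70 in air and -0.65 after exposure. Lrp1, the endocytic receptor that clears Mmps and Timps, stood at -0.41 and -0.55, and Bsg, an inducer of Mmps, at 0.24 and 0.28, all passing. At day 27 Htra1, Furin and Lrp1 exceeded their air L levels in air H, by 0.62, 0.30 and 0.38. Between the exposed sets of day 27, where 0% of all genes passed, none of them did. Their means after 1000 and 200 ug/m3 were 54.8 and 50.6 CPM for Htra1, 109 and 111 CPM for Furin, and 1200 and 1160 CPM for Lrp1. Htra1, Lrp1 and Furin thus differed between sets in the same directions as Timp1 and Timp2 at day 7, in the same libraries. At day 27 they did so with Timp2 between the air sets only.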

How the data were processed

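Whole-gene read counts were deposited by the authors as 1 table of 72 libraries and 30042 rows. Per the labels' protocols, ribosomal RNA was depleted and a kit that keeps strand was used. HTSeq 0.6.1, HISAT2 2.1.0 and the build Rnor_6.0 are named, per the submitters' processing notes, with SAMtools 1.8, Trimmomatic 0.35 and bcl2fastq 2.19. Which annotation release was counted, and with which strand setting, is not given in the sources used here.

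Counts were tested as deposited with edgeR 4.0.16 in R 4.3.3 (quasi-likelihood, robust, TMM factors, filterByExpr by group with a minimum count of 10), with Benjamini-Hochberg adjustment over all genes and a threshold of 0.05. Comparisons within a day used that day's 24 libraries, and comparisons of days and the average exposure effect used all 72 with 12 group means. Standard errors come from the quasi-likelihood F, and intervals are 95%. Levels are TMM-scaled CPM. Groups came from the labels. The p-values rest on the spread between animals within groups, pooled over all groups of a fit and moderated across genes. Of 180 pairs of libraries within groups, 0 were identical.

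Members and lists were chosen with earlier results of these data known. Named genes were all Timps, the 6 other members with the highest mean log2 CPM, the smallest p of each exposure comparison, members called between H and L sets in both air and exposed rats, members called in all 4 sets between days, and up to 3 members and up to 4 listed genes by smallest p. Other members named with values (such as Adamts5, Adamts12, Adamts17, Mmp8 and Mmp9) were chosen after their values were seen. On simulated data with 200 genes changed by 2-fold, the test recovered 93.4%, 91.5% and 88.4% between air sets at days 1, 7 and 27 (12304, 14331 and 14761 genes) and 89.4% between days 27 and 7 in air H (14956 genes). Of the 196, 189, 182 and 181 genes called, 12, 6, 6 and 4 were false calls. Changes smaller than 2-fold and the exposure comparisons were not simulated. DESeq2 1.42.0, limma-voom (limma 3.58.1), other scalings, filters, fits and thinned counts were alternatives, and the comparisons by number series were added after seeing the data. Depth and limits on 0 counts stand with the results.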

Additional observations from a re-analysis of the deposited data

Results flagged for a closer look

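Single animals stood apart from their group of 6 in 25 of 192 sets (16 named members in 12 groups) by Dixon's test of log2 CPM at its 95% critical value. Chance alone gives about 1 in 20, or 9.6 of 192. The shallow library of animal 037 (1000 ug/m3, day 7) gave Timp2 at 123 CPM, Mmp2 at 237 CPM, Adamts10 at 167 CPM, Mmp15 at 70.2 CPM, Mmp14 at 79 CPM, Adamts2 at 52.7 CPM and Mmp19 at 0 CPM. The shallow library of animal 045 (1000 ug/m3, day 27) gave Mmp14 at 37.9 CPM and Timp4 at 0 CPM. The limits for 0 counts were 28.4 CPM in animal 037 and 20.1 CPM in animal 045.

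Among deeper libraries of day 1, Timp1 was low in animals 002 (air H, 11.5 CPM) and 058 (200 ug/m3, 10.2 CPM), and Timp3 was high in animal 005 (1000 ug/m3, 1140 CPM). Adamts10 was high in animal 003 (air H, 266 CPM) and low in animal 060 (200 ug/m3, 171 CPM), which also had the low Adamts5 value of 6.52 CPM. Mmp15 was low in animal 026 (air H, 136 CPM) and high in animal 030 (1000 ug/m3, 189 CPM), and Adamts7 stood at 35.6 CPM in animal 061 (200 ug/m3). Timp4 was 0 CPM in animals 004 (air H, day 1) and 069 (air L, day 7). At day 27, Timp2 was high in animal 018 (air H, 237 CPM), and Adamtsl4 was low in animal 081 (air L, 21.8 CPM). Mmp15 stood at 95.7 CPM in animal 091 and Mmp14 at 88.8 CPM in animal 090 (both 200 ug/m3), and Adamts2 at 67.9 CPM in animal 021 (1000 ug/m3).

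The change over days differed between the air sets by a test of the difference itself for 15 combinations of member and interval. From day 1 to day 7, the change in air H minus that in air L on the log2 scale was -0.834 for Timp1, -0.356 for Timp2, 0.345 for Adamts10 and 0.385 for Adamtsl3. From day 7 to day 27 it was 1.32 for Timp1, 0.747 for Timp2, 0.988 for Mmp19, 0.844 for Mmp15, 0.401 for Mmp2 and 1.28 for Adamts4. It was 0.588 for Adamts17, 0.684 for Adamtsl4 and 0.527 for Adamtsl5, and negative for Adamtsl3 (-0.336) and Timp3 (-0.277).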

How the results depend on the processing

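Of 258 recomputed counts of members called, 124 were 0 in both fits and say little on stability. Of the 133 with a count above 0, 117 stayed within 1.5 times. No result reversed, and no exposure comparison called a member under any alternative run. Between air sets, 1 member passed at day 1 with all 72 libraries in 1 fit (0 otherwise). In number series 25 to 48 alone, 3 members passed between air sets (10 with all) and 1 between exposed sets (6 with all) at day 7. Between the air sets of day 27 (7 with all), 4 passed without the 3 shallow libraries, 4 in series 1 to 24 and 1 in series 25 to 48, the last with fewer animals. Counts thinned to 1042336 per library, which tested 28 members, called 6 in air H, 2 in air L and 6 after 1000 ug/m3 from day 1 to day 7. From day 7 to day 27 they called 5 in air H, 7 in air L, 3 after 1000 and 3 after 200 ug/m3, and for the differences in change 1 and 5. Without a filter, air L from day 1 to day 7 had 2 members (4 with it), and 200 ug/m3 from day 7 to day 27 had 6 (10) in a fit of 36 libraries. The cause was not tested. Of the single members, 1076 values kept their side of the threshold and 133 lost a call. The 3 shallow libraries limit the 1000 ug/m3 groups of days 7 and 27. No paired analysis was possible because the labels give every animal its own number.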

Other observations

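Animal 011 (air H, day 7) had a summed level of neutrophil markers of 275 CPM, where the other 5 animals of its group had 81.7 to 133 CPM. Its Mmp8, the neutrophil collagenase, stood at 13.7 CPM and its Mmp9 at 5.49 CPM.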
